A study of Mus musculus with 33 samples.

Results

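Frontal cortex RNA-Seq counts of 9 genes that mark the oligodendrocyte lineage were examined in mouse offspring exposed to e-cigarette aerosols in early life. The genes were chosen by symbol from a fixed list (Pdgfra, Cspg4, Gpr17, Olig1, Olig2, Sox10, Nkx2-2, Nkx6-2 and Zfp488), and they are 9 of the 23366 rows in each of the 2 count tables, 1 per sex. All 9 passed the filter on low counts in both tables. C57BL/6 dams breathed filtered air, aerosol made from a blu cartridge with nicotine (13 to 16 mg/mL) or aerosol made from a nicotine-free cartridge of the same brand during gestation. Dams and pups were then exposed together during lactation, and brains were taken at about 1 month of age, after exposure had ended. The female table held 6 air, 5 nicotine and 5 no nicotine libraries, while males had 6 air, 6 nicotine and 5 no nicotine libraries. Each library came from the frontal cortex of 1 pup, and the study took 1 pup per litter. The wild-type strain, the whole-body exposure and the handling during exposure were shared by the 3 treatments. The paper describes 3 separate exposure chambers and a higher mean particulate level for the aerosol without nicotine. Chamber and particulate level therefore cannot be told apart from treatment. The aerosol reached dam and pup together after birth, so an effect on the pup and an effect through the dam cannot be told apart.

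Total counts ran from 19150562 to 27513174 per female library and from 17845672 to 24787955 per male library. The sexes were sequenced in separate runs, so sex and run cannot be told apart, and levels were compared within a table. In 32 of the 33 libraries the level of Xist, the transcript of the silenced X chromosome, and the counts of 4 Y-linked genes went with the labelled sex. The library labelled male nicotine 21 did not: Xist stood at 215 CPM (counts scaled to library size) against at most 0.253 CPM in the other male libraries, with 1 count over the Y-linked genes against at least 2140. It was kept in its labelled group, and the log2 differences of the 9 genes in male nicotine comparisons with air are also given without it. The tissue was bulk cortex, in which more cells of a type and more RNA per cell cannot be told apart.

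Oligodendrocytes wrap axons in myelin and arise from precursor cells that keep dividing in the juvenile and adult brain. Precursors carry the growth factor receptor PDGFRα (Pdgfra) and the proteoglycan NG2 (Cspg4), lose both as they differentiate, and pass through a committed stage that carries the receptor GPR17. The transcription factors Olig1, Olig2 and Sox10 are present from the precursor to the myelinating cell, Nkx2-2 acts around the onset of differentiation, and Nkx6-2 and Zfp488 are linked to the differentiating and myelin-forming stages.

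Promoters of 6 of the 9 genes (250 bases before to 50 after the start of transcription, RefSeq, build GRCm38.p6) were in the sequence table used, and 3 are shown. They belong to the gene with the largest changes (Nkx6-2), a lineage factor called with it only in the no nicotine groups (Olig2) and a precursor receptor not called against air (Pdgfra). Nkx6-2 lies at chr7:139582748-139583047 on the minus strand, Olig2 at chr16:91225300-91225599 and Pdgfra at chr5:75152001-75152300, both on the plus strand. Capitals mark matches on either strand to 6 short motifs: CCAAT (the CCAAT box), ACAAAG (a SOX-type motif), ACAATG (another SOX-type motif), CAGCTG (an E-box), CAGATG (another E-box) and TATAAA (the core of TATA boxes). No marked matches overlap.
Nkx6-2: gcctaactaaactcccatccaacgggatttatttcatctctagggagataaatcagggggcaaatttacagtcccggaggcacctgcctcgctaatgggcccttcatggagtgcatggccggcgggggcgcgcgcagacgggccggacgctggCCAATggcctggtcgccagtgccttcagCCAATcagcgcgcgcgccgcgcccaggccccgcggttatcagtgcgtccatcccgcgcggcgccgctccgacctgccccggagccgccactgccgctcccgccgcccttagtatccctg
Olig2: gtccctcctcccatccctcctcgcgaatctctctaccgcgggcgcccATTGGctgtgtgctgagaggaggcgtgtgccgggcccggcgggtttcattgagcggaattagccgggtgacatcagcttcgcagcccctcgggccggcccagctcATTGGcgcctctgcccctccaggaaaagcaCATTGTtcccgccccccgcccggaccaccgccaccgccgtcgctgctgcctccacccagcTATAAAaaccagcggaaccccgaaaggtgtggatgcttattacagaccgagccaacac
Pdgfra: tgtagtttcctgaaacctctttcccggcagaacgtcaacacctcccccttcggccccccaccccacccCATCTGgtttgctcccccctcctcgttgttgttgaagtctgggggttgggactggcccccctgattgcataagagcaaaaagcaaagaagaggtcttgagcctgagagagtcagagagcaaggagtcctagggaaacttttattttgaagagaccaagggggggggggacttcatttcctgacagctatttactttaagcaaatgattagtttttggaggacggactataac

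The Nkx6-2 window held 2 CCAAT matches and the Olig2 window 2 CCAAT, 1 ACAATG and 1 TATAAA match, while the Pdgfra window held 1 CAGATG match. CCAAT was found in 37.4% of 32851 promoters of this length, ACAATG in 12.6%, CAGATG in 17.2% and TATAAA in 13.6%. ACAAAG (18.7%) and CAGCTG (16.3%) had no match in these 3 windows. The windows differed in base composition, with 66.7% G and C and 32 CpG in Nkx6-2, 65.0% and 25 in Olig2, and 51.0% and 5 in Pdgfra. These matches describe the sequence and say nothing of binding.

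In the build of the count tables (mm9), Nkx6-2 spans chr7:146765276-146768696, Olig1 chr16:91270014-91272184, Olig2 chr16:91225795-91228922, Sox10 chr15:78985343-78994920 and Pdgfra chr5:75548316-75594229. Olig1 and Olig2 are neighbours on chromosome 16. Exons of Nkx6-2 overlap those of Inpp5a on the opposite strand over 12.9% of their bases, those of Nkx2-2 overlap an antisense RNA (Nkx2-2as) over 9.67%, and those of Gpr17 overlap Lims2 over 3.62%. Whether counting used strand is not given in the sources used here, so reads of these partners cannot be told apart.

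In the air exposed controls, Olig1 had the highest level per length, 136 ± 11.6 CPM per kb of exon in females (SD, n = 6) and 139 ± 7.66 in males (n = 6). Gpr17 followed at 40.03 ± 4.86 CPM per kb in females and 46.1 ± 6.35 in males. Pdgfra, Sox10 and Olig2 formed a middle group, at 22.5 ± 2.504, 19.97 ± 0.960 and 19.6 ± 0.896 CPM per kb in females, and their order changed in males (22.6 ± 1.83, 24.7 ± 1.80 and 21.6 ± 0.832). These neighbours lay within about their spread. Cspg4 stood at 8.43 ± 1.02 and 8.69 ± 0.552 CPM per kb, Nkx6-2 at 5.57 ± 0.483 and 6.37 ± 0.398, and Nkx2-2 (2.24 ± 0.313 and 2.65 ± 0.381) and Zfp488 (2.20 ± 0.155 and 2.52 ± 0.155) were lowest and did not differ beyond their spread.

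**Figure D1:**
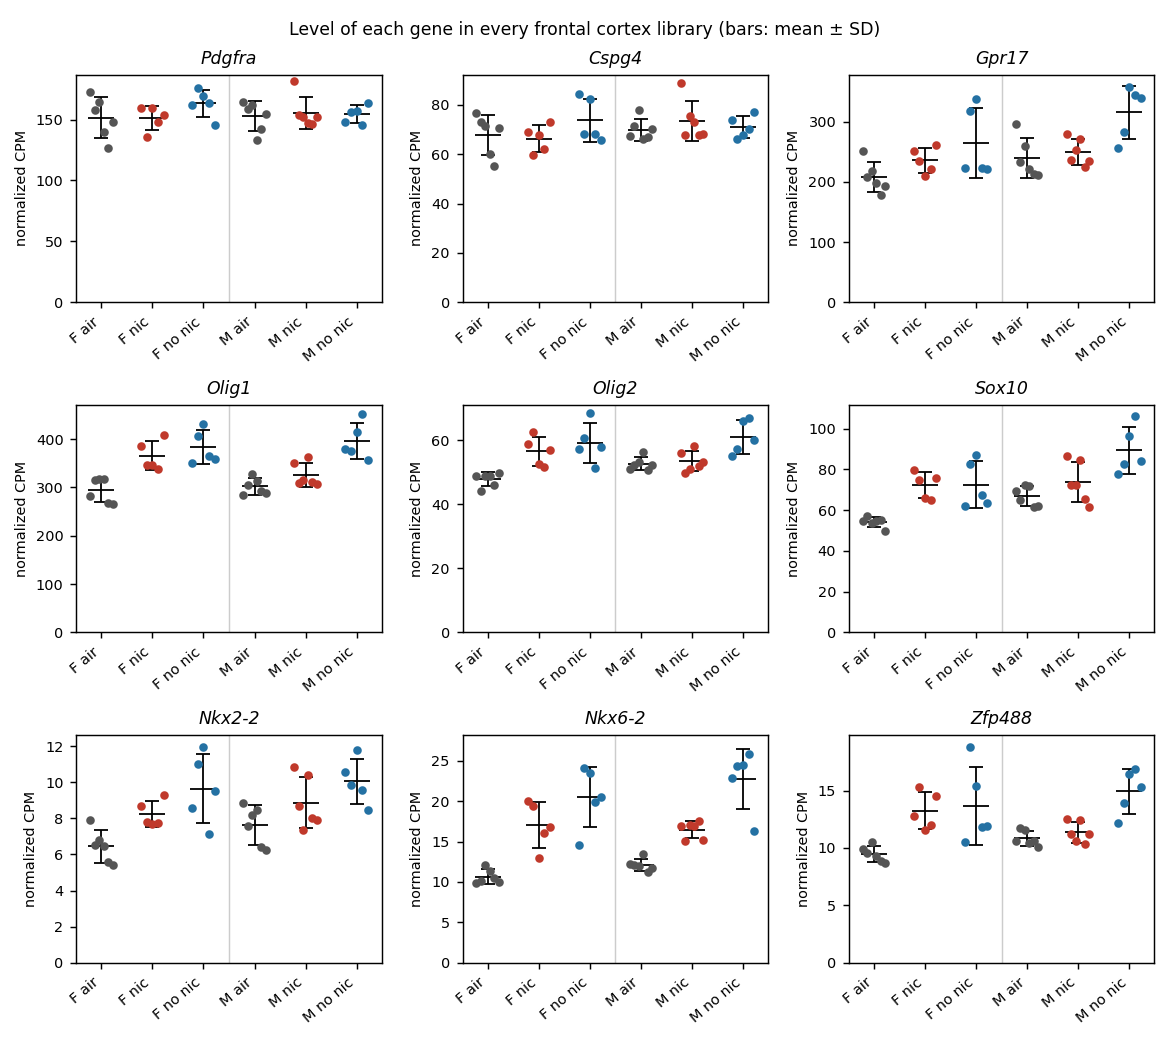
Normalized CPM (y axis, starting at 0) of each of the 9 genes in the 33 libraries, with female (F) groups left and male (M) groups right of the grey line. Points are libraries and bars are mean ± SD. The Nkx6-2 points of each exposed group lie above the air points of that sex, from 12.1 CPM at most in female air to between 13.0 and 24.1 CPM in exposed females, while Pdgfra and Cspg4 points overlap in each comparison.

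The first question was which lineage genes differed between offspring exposed to aerosol and air exposed controls. The number of genes past an adjusted p of 0.01 (edgeR quasi-likelihood test, Benjamini-Hochberg over all genes tested) was 3 of 9 in females with nicotine, where 4.29% of 15158 genes were called and 1.98% were called higher, and 6 of 9 in the female no nicotine group (12.1% called, 5.03% higher). In males it was 0 of 9 for nicotine (0% of 15293 called) and 6 of 9 for no nicotine (13.6% called, 6.15% higher). Every call was an increase. The genes called were Nkx6-2, Sox10 and Olig1 in females with nicotine, these with Olig2, Nkx2-2 and Zfp488 in females without nicotine, and Nkx6-2, Sox10, Olig1, Olig2, Zfp488 and Gpr17 in males without nicotine. The median log2 fold change of the 9 genes was 0.31, 0.38, 0.07 and 0.40 in these 4 comparisons, against 0.00, 0.01, 0.01 and 0.02 over all genes tested. The 4 comparisons share the air samples of a sex and so are not independent. In males with nicotine, 0 genes were called by edgeR or limma-voom and 140 by DESeq2, and 2203 genes (14.4%) had an unadjusted p below 0.05, 1 of them a lineage gene (Nkx6-2). Leaving out the library labelled male nicotine 21 also gave 0 calls there. In females with nicotine the count of lineage genes fell to 0 without nicotine library 2 and to 1 without nicotine library 1, nicotine library 6 or air library 6. In females without nicotine it fell to 3 without either no nicotine library 2 or 3. With the replicate number as a block, the female counts were 0 with nicotine and 2 without nicotine.

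Of the 3 receptor genes, Pdgfra and Cspg4 did not pass the test in any comparison with air, and Gpr17 passed in males without nicotine. Pdgfra, the receptor for platelet-derived growth factor that drives precursor division, ranged from 127 to 173 CPM in female air libraries (median 153). It read 159, 135, 159, 148 and 154 CPM with nicotine and 162, 176, 169, 163 and 146 CPM without nicotine. Both exposed groups overlapped the air libraries, with no nicotine library 2 above them. In males it was 133 to 164 CPM in air (median 157), 146 to 181 CPM with nicotine (median 152) and 148, 156, 157, 146 and 164 CPM without nicotine, again overlapping. The fold against air was 1.08 in females without nicotine (95% interval 0.970 to 1.19, adjusted p = 0.301 by edgeR) and 1.01 in males without nicotine (0.926 to 1.10, adjusted p = 0.888). With nicotine, the 95% interval of the fold was 0.899 to 1.11 in females and 0.936 to 1.11 in males, where the log2 difference was 0.03 and 0.04 without library 21.

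Cspg4, which encodes the NG2 proteoglycan on the precursor surface, behaved much like Pdgfra. It ran from 55.4 to 76.6 CPM in female air libraries, from 59.5 to 72.9 CPM with nicotine and from 65.9 to 84.3 CPM without nicotine. In males it ran from 66.0 to 77.9 CPM in air, from 67.7 to 88.9 CPM with nicotine and from 66.2 to 77.2 CPM without nicotine. Groups overlapped in each comparison, and its log2 fold changes against air lay between -0.03 and 0.12 with SE of 0.06 to 0.09 (0.07 in males with nicotine, and 0.09 without library 21). Pdgfra is also made by fibroblasts and Cspg4 by pericytes, so neither level belongs to precursors alone.

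Gpr17, a G protein-coupled receptor of committed precursors, was called in males without nicotine. Male air libraries ran from 211 to 296 CPM (median 228), and the no nicotine libraries read 256, 283, 357, 345 and 340 CPM. The groups overlapped, with 3 of 5 no nicotine libraries above the air libraries. The fold was 1.32 (95% interval 1.15 to 1.52, log2 0.40 ± 0.10 SE, adjusted p = 0.00502). This call was lost (adjusted p 0.0120 to 0.0186) without any 1 of air libraries 31, 37, 38 and 39 or no nicotine libraries 4, 5 and 7, and in the fit of only 2 groups (0.0130). In females without nicotine the libraries split, with 317 and 337 CPM in libraries 2 and 3 and 221 to 224 CPM in the other 3, against 178 to 251 CPM in air. The log2 difference there was 0.35 ± 0.12 SE (adjusted p = 0.0363), and with nicotine it was 0.18 in females and 0.06 in males (0.09 without library 21).

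The factors shared by all stages moved together in the no nicotine groups. Olig1, a basic helix-loop-helix factor needed for myelin repair, ran from 266 to 318 CPM in female air libraries (median 300). It read 386, 347, 347, 339 and 409 CPM with nicotine and 351, 407, 432, 366 and 359 CPM without nicotine. All 10 exposed female libraries lay above all 6 air libraries. The fold was 1.24 with nicotine (95% interval 1.12 to 1.38, adjusted p = 0.00925 by edgeR) and 1.30 without nicotine (1.17 to 1.44, adjusted p = 0.00161). In males the air libraries ran from 285 to 328 CPM, the nicotine libraries from 307 to 364 CPM and the no nicotine libraries read 379, 376, 415, 453 and 357 CPM. The 5 no nicotine libraries lay above the air libraries (fold 1.31, 1.20 to 1.44, adjusted p = 0.000222), and 2 of 6 nicotine libraries did (log2 0.11 ± 0.06 SE, adjusted p = 0.413). Without the library labelled male nicotine 21 that difference was 0.12 (adjusted p = 0.418). The nicotine call in females was narrow and was lost in 11 of 16 fits that left out 1 library (adjusted p 0.0102 to 0.0283), namely air 1, 2, 4, 5 and 6, nicotine 1, 2, 5 and 6, and no nicotine 4 and 5.

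Olig2, which specifies the lineage and lies beside Olig1, had smaller folds than Olig1. Female air libraries ran from 44.2 to 49.8 CPM (median 48.8), nicotine libraries read 58.8, 62.6, 52.6, 51.5 and 56.8 CPM, and no nicotine libraries 57.2, 60.7, 68.6, 51.4 and 57.7 CPM. All 10 exposed libraries lay above the air libraries. The fold without nicotine was 1.24 (95% interval 1.13 to 1.36, adjusted p = 0.00322), and the log2 difference with nicotine was 0.24 ± 0.07 SE, which did not pass by edgeR (adjusted p = 0.0233) and passed by DESeq2 (0.00791). The call without nicotine was lost without no nicotine library 2 or 3 (adjusted p 0.0118 and 0.0122). In males without nicotine 4 of 5 libraries lay above the air libraries (50.7 to 56.3 CPM), and the fold was 1.16 (1.07 to 1.25, adjusted p = 0.00642). That call was lost (adjusted p 0.0123 to 0.0251) without any 1 of air libraries 30, 31, 33, 38 and 39 or no nicotine libraries 4 and 5, and in the fit of only 2 groups (0.0126). Male nicotine libraries ran from 49.8 to 58.0 CPM, with a log2 difference of 0.02 and 0.03 without library 21.

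Sox10, the factor that switches on myelin genes, ran from 49.5 to 57.4 CPM in female air libraries (median 54.7). It read 79.5, 74.9, 66.2, 65.2 and 75.9 CPM with nicotine and 62.1, 82.5, 86.9, 67.4 and 63.4 CPM without nicotine. The exposed libraries lay above the air libraries in each group. The fold was 1.33 with nicotine (95% interval 1.18 to 1.51, adjusted p = 0.00455) and 1.34 without nicotine (1.19 to 1.51, adjusted p = 0.00212). In males the air range was 61.4 to 72.4 CPM, and the no nicotine libraries read 77.7, 82.8, 96.6, 106 and 83.9 CPM, above all air libraries (fold 1.34, 1.17 to 1.52, adjusted p = 0.00240). The male nicotine libraries ran from 61.7 to 86.4 CPM, with 2 of 6 above air (log2 0.14 ± 0.09 SE, adjusted p = 0.498, and 0.17 without library 21). The nicotine call in females was lost without nicotine libraries 1, 2 or 6 or air library 6 (adjusted p 0.0130 to 0.0162).

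Nkx2-2, a homeobox factor of early differentiation, had a low level. It ran from 5.41 to 7.90 CPM in female air libraries (median 6.51) and read 8.56, 10.99, 11.97, 7.15 and 9.54 CPM without nicotine. The groups overlapped, with 4 of 5 above air. The fold was 1.49 (95% interval 1.25 to 1.78, adjusted p = 0.00306), and the call was lost without no nicotine library 2 or 3 (adjusted p 0.0120 and 0.0125). In males without nicotine the log2 difference was 0.40 ± 0.12 SE (adjusted p = 0.0172). It passed without no nicotine library 7 (adjusted p = 0.00961), by DESeq2 (0.00831) and by limma-voom (0.00490). With nicotine the difference was 0.36 in females and 0.22 in males (0.24 without library 21), and neither passed.

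Nkx6-2, a homeobox factor whose loss disturbs myelin structure, changed more than the other lineage genes in each of the 4 comparisons. Female air libraries ran from 9.81 to 12.1 CPM (median 10.3). Nicotine libraries read 20.02, 19.4, 13.0, 16.1 and 16.8 CPM and no nicotine libraries 14.6, 24.1, 23.4, 19.8 and 20.5 CPM. Each exposed female library stood above each air library. The fold was 1.60 with nicotine (95% interval 1.34 to 1.92, adjusted p = 0.00287) and 1.92 without nicotine (1.61 to 2.30, adjusted p = 0.000802). Without nicotine library 2 the nicotine call was lost (log2 0.63, adjusted p = 0.0105).

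In males, Nkx6-2 ran from 11.2 to 13.5 CPM in air libraries and from 15.03 to 17.6 CPM in nicotine libraries (median 16.9), and the no nicotine libraries read 22.9, 24.3, 24.5, 25.8 and 16.3 CPM. Again no exposed library overlapped with air. The fold was 1.88 without nicotine (95% interval 1.65 to 2.14, adjusted p = 1.62e-05). With nicotine it was 1.36 (1.19 to 1.54), and the adjusted p of 0.0416 by edgeR did not pass. Without the library labelled male nicotine 21 the log2 difference was 0.42 instead of 0.44 (adjusted p = 0.0960). It passed by DESeq2 (0.00153), in a fit of only these 2 groups (0.00649) and without no nicotine library 7 (0.00537).

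Zfp488, a zinc finger partner of Olig2 in differentiation, ran from 8.73 to 10.5 CPM in female air libraries (median 9.40). It read 12.8, 15.3, 11.6, 12.02 and 14.5 CPM with nicotine and 10.5, 18.8, 15.4, 11.8 and 11.9 CPM without nicotine. All exposed libraries lay above the air libraries, the lowest no nicotine library barely so. The fold was 1.44 without nicotine (95% interval 1.20 to 1.73, adjusted p = 0.00617), and the log2 difference with nicotine was 0.48 ± 0.13 SE (adjusted p = 0.0191). The call without nicotine was lost (adjusted p 0.0126 to 0.0222) without any 1 of air libraries 2, 4, 5 and 6 or no nicotine libraries 2 and 3, and in the fit of only 2 groups (0.0117). The nicotine difference passed without no nicotine library 2 (0.00486), by DESeq2 (0.00367) and in the fit of only 2 groups (0.00312). In males the air range was 10.1 to 11.7 CPM, and the no nicotine libraries read 12.1, 13.9, 16.5, 16.9 and 15.3 CPM, above all air libraries (fold 1.38, 1.23 to 1.55, adjusted p = 0.000472). The male nicotine libraries overlapped air, with a log2 difference of 0.07 ± 0.08 SE (0.10 without library 21).

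**Figure D2:**
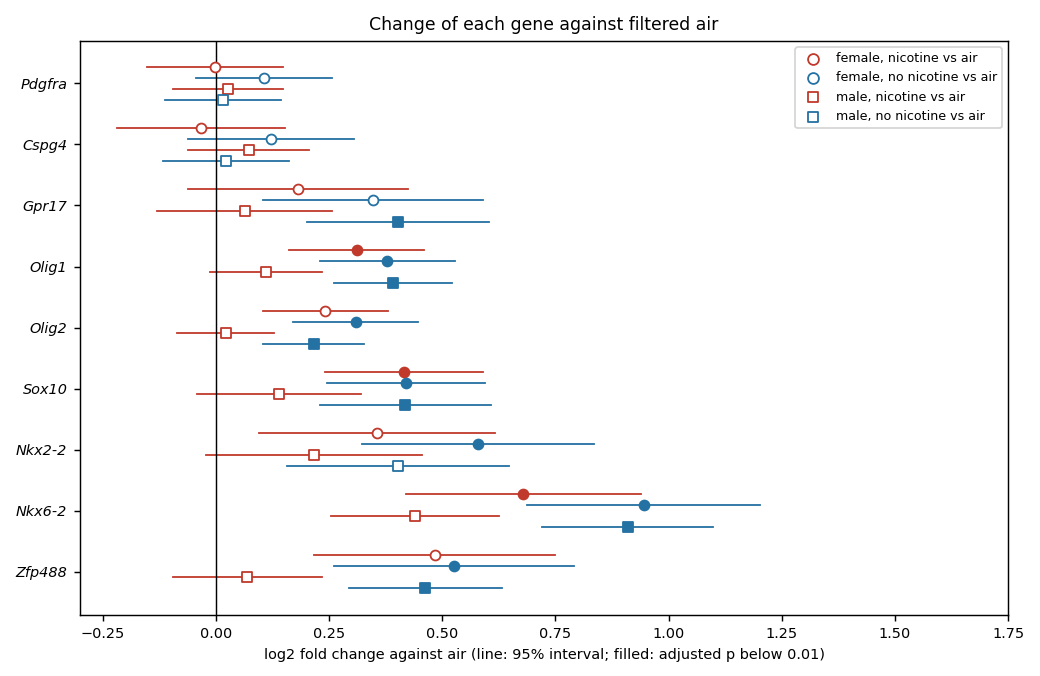
Log2 fold change against air (x axis) of the 9 genes (y axis) in 4 comparisons, with 95% intervals as lines. Circles are females, squares males, red nicotine and blue no nicotine, and filled symbols have an adjusted p below 0.01. Nkx6-2 lies farthest right, at 0.94 and 0.91 without nicotine, and each Pdgfra and Cspg4 interval spans 0.

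The second question was whether the groups exposed to aerosol with and without nicotine differed. Nicotine cannot be told apart here from chamber and particulate level. In females 0 of 9 genes differed between nicotine and no nicotine (0% of all genes called by edgeR, 0 by DESeq2 and limma-voom, and 1267 genes or 8.36% with an unadjusted p below 0.05). All 9 differences were below 0, from -0.27 for Nkx6-2 (adjusted p = 0.596) to 0.00 for Sox10. In males 0 of 9 passed, where 0.248% of all genes were called (0.222% higher, 0.0262% lower), and 6 of 9 had an unadjusted p below 0.05 (20.1% of all genes did). The nicotine group was lower for Nkx6-2 by log2 -0.47 ± 0.09 SE (adjusted p = 0.0128), for Zfp488 by -0.39 ± 0.08 (0.0167) and for Olig1 by -0.28 ± 0.06 (0.0217). These 3 were called by DESeq2, and limma-voom called Nkx6-2. In edgeR, 3 passed without nicotine library 19, 2 without no nicotine library 7 and 1 without no nicotine library 2. Without the library labelled male nicotine 21 the differences were -0.49, -0.37 and -0.27, with 0 lineage genes called, and the genes called in the whole table fell from 38 to 5. Pdgfra and Cspg4 differed by 0.01 and 0.05, with 95% intervals of -0.12 to 0.14 and -0.09 to 0.19.

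The third question was whether the sexes differed in their change against air, tested as the male change minus the female change in 1 fit of the 6 groups. No lineage gene passed, and 0% of 15105 genes were called for either aerosol by edgeR, with 6.47% (nicotine) and 4.91% (no nicotine) at an unadjusted p below 0.05. For nicotine, the male change was smaller for Zfp488 by log2 -0.42 (95% interval -0.73 to -0.12, adjusted p = 0.607), for Sox10 by -0.29 (-0.54 to -0.03), for Olig2 by -0.23 (-0.40 to -0.06) and for Olig1 by -0.21 (-0.40 to -0.02). Without the library labelled male nicotine 21 these were -0.40, -0.25, -0.22 and -0.20, with 0 called. For the nicotine-free aerosol the differences lay between -0.18 and 0.05. A sex difference was therefore not shown, although calls were made in females and not in males with nicotine.

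Genes of the precursor stage were then set against genes of the mature stage. Of 16 further precursor genes, all tested, 0 rose and 1 fell in nicotine females, 3 rose and 1 fell in no nicotine females, 0 changed in nicotine males, and 1 rose and 2 fell in no nicotine males. The list medians were log2 0.03, 0.08, -0.03 and 0.03 in this order. The share of the list called in either direction was 6.25%, 25%, 0% and 18.8%, beside 4.29%, 12.1%, 0% and 13.6% of all genes. Called genes included C1ql1 (0.29 ± 0.06 SE, adjusted p = 0.00309), which encodes a secreted complement-like protein, and Lhfpl3 (0.41 ± 0.10, 0.00518) in females without nicotine, and Cacng4 (0.39 ± 0.10, 0.00688), an AMPA receptor auxiliary subunit, in males without nicotine. Tnr, an extracellular matrix protein, was called lower in females (-0.30 ± 0.07, 0.00809) and males (-0.21 ± 0.04, 0.00109) without nicotine, and Susd5 was called lower in females with nicotine (-0.47 ± 0.11, 0.00975). The female nicotine count fell to 0 in 13 of 16 fits that left out 1 library (all but those without air 3, nicotine 3 or no nicotine 1), the female no nicotine count fell to 0 to 2 without air 2 to 6 or no nicotine 2 to 5 (air 3 and no nicotine 4 gave 2, and no nicotine 2 gave 0), and the male no nicotine count fell to 1 without air 31, 38 or 39.

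Of 30 mature-stage genes, 26 rose in nicotine females, 24 in no nicotine females, 0 in nicotine males and 21 in no nicotine males, with no decrease called. These are 86.7%, 80%, 0% and 70% of the list, beside 1.98%, 5.03%, 0% and 6.15% of all genes called higher. The medians were log2 0.63, 0.54, 0.14 and 0.58. Mbp, which encodes myelin basic protein, ran from 3947 to 4832 CPM in female air libraries, from 6568 to 8528 CPM with nicotine and from 5384 to 7699 CPM without nicotine (0.74 ± 0.09 SE with nicotine, adjusted p = 0.000425). In males it ran from 4521 to 5530 CPM in air, from 4862 to 7331 CPM with nicotine and from 6959 to 11426 CPM without nicotine (0.75 ± 0.11, adjusted p = 0.000164). The counts of mature genes stayed between 18 and 27 when any 1 library was left out, apart from 0 in males with nicotine. Of 11 genes of newly formed oligodendrocytes, 4, 3, 0 and 8 were called, all higher, with medians of 0.18, 0.19, 0.06 and 0.38. The shares of this list were 36.4%, 27.3%, 0% and 72.7%, beside 1.98%, 5.03%, 0% and 6.15% of all genes. Tcf7l2, a transcription factor that marks cells at the start of myelination, was called in 3 comparisons (0.94, 1.09 and 0.71), and Bcas1, an early myelinating marker, in the same 3 (0.54, 0.41 and 0.47). The count of 4 fell to 1 or 2 without air 2 to 6 or nicotine 1, 2 or 6, the count of 3 rose to 5 without no nicotine 1, and the count of 8 fell to 4 without no nicotine 4.

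**Figure D3:**
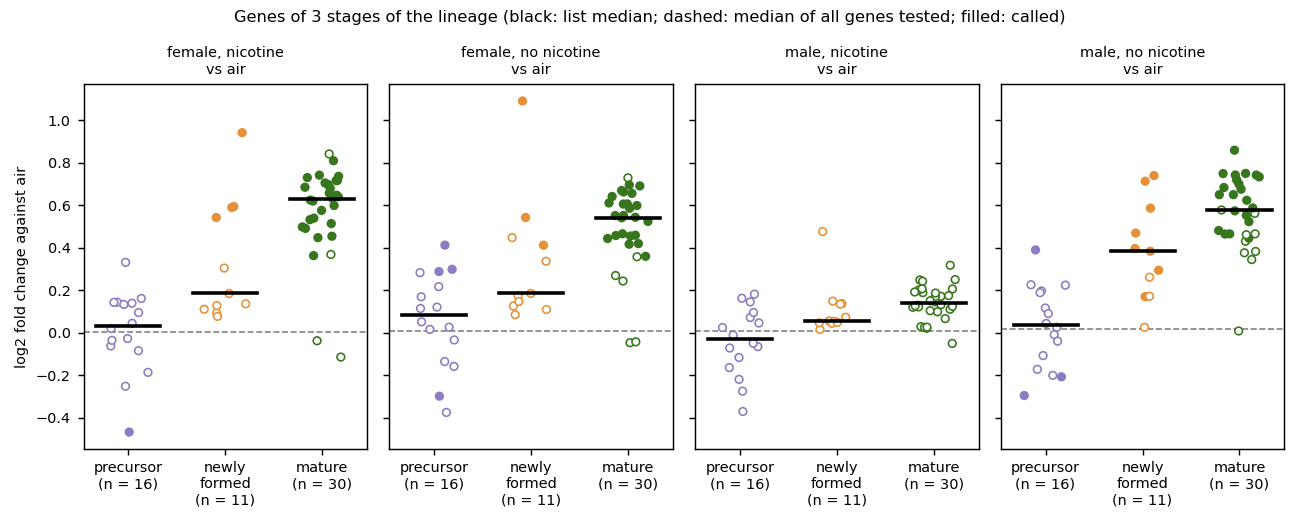
Log2 fold change against air (y axis) of each gene in the precursor, newly formed and mature lists, 1 panel per comparison, with filled points at an adjusted p below 0.01. Black bars are list medians, which stand at 0.03 to 0.08 for precursor genes and 0.54 to 0.63 for mature genes in the comparisons other than male nicotine, and the dashed line is the median of all genes tested.

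Per library, the mean log2 CPM of the mature genes minus that of the precursor genes was 1.80 ± 0.16 (SD, n = 6) in female air, 2.36 ± 0.13 with nicotine and 2.21 ± 0.17 without nicotine. All 10 exposed female libraries stood above the 6 air libraries. In males it was 1.79 ± 0.09 in air, 1.96 ± 0.16 with nicotine (3 of 6 above all air libraries, or 2 of 5 without library 21, whose value of 1.98 was close to the highest air value of 1.97) and 2.30 ± 0.31 without nicotine (5 of 5). The summed precursor level itself ran from 882 to 1102 CPM in female air libraries, 924 to 1026 CPM with nicotine and 940 to 1117 CPM without nicotine, and from 998 to 1190 CPM over the 3 male groups. The level of Nkx6-2 per kb was 25.1 ± 3.59% of that of Pdgfra in female air, 40.2 ± 8.11% with nicotine and 44.4 ± 7.45% without nicotine, and 28.3 ± 3.75%, 37.6 ± 3.86% and 52.5 ± 10.3% in males.

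**Figure D4:**
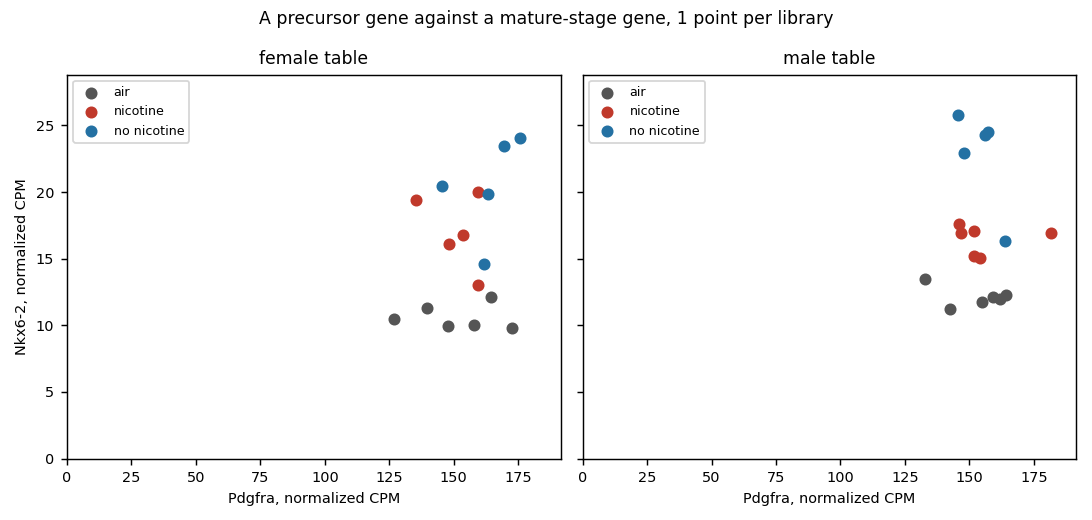
Normalized CPM of Pdgfra (x axis) against Nkx6-2 (y axis) in each library, females left and males right, coloured by treatment. Exposed libraries lie higher on the Nkx6-2 axis and share the Pdgfra range of the air libraries, apart from no nicotine library 2 in females at 176 CPM and the male nicotine library 15 at 181 CPM.

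Partners and signals around these genes were counted next. Of 12 partner transcription factors, 11 were in the tables and 9 (females) or 10 (males) were tested. None was called with nicotine, while 1 rose and 1 fell in no nicotine females (22.2% called, beside 12.1% of all genes) and 3 rose and 1 fell in no nicotine males (40%, beside 13.6%). Without nicotine, St18 rose in females (log2 0.61 ± 0.13 SE, adjusted p = 0.00401) and males (0.52 ± 0.13, 0.00522), Tcf4 fell in both (-0.31 and -0.26), and Sox8, a relative of Sox10, rose in males (0.33 ± 0.08, 0.00508), as did Tcf12 (0.17 ± 0.04, 0.00597). Among 9 inhibitors of differentiation, 2 rose and 2 fell in nicotine females (44.4% called, beside 4.29% of all genes), 1 rose and 2 fell in no nicotine females (33.3%, beside 12.1%), 0 changed in nicotine males, and 1 rose and 3 fell in no nicotine males (44.4%, beside 13.6%). Lingo1 and Sox5 fell in both female groups (Lingo1 -0.64 and -0.82, Sox5 -0.48 and -0.56) and in males without nicotine (-0.87 and -0.44), where Id2 also fell (-0.40). Bmp4, a secreted growth factor, rose in these 3 groups (0.53, 0.50 and 0.67), and Id4 rose in females with nicotine (0.33). Lingo1 and Sox5 are also expressed by cortical neurons.

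Among 10 ligands, 9 were tested. With nicotine 0 were called. In each no nicotine comparison 1 was called, or 11.1% of those tested, near the 12.1% (females) and 13.6% (males) of all genes. Shh, which encodes the secreted protein Sonic hedgehog, rose without nicotine in females (log2 0.95 ± 0.17 SE, adjusted p = 0.00148) and males (0.53 ± 0.14, 0.00889), and the ligand of PDGFRα, Pdgfa, was not called. Among 8 receptors and transducers of these signals, 1 rose in nicotine females, 4 in no nicotine females, 0 in nicotine males and 4 in no nicotine males. These are 12.5%, 50%, 0% and 50% of the list, beside 1.98%, 5.03%, 0% and 6.15% of all genes called higher. Without nicotine they were Smo, the transducer of hedgehog signals (0.45 in females and 0.44 in males), Ptch1, a hedgehog receptor (0.54 and 0.51), Fgfr1, a receptor for fibroblast growth factors (0.24 and 0.27), and Lpar1, a lysophosphatidic acid receptor of maturing oligodendrocytes (0.52 and 0.55). Lpar1 was also the gene called in nicotine females (0.53). Of 11 cell division genes 10 were tested and 0 passed. Their median was log2 0.55 in nicotine females, where 5 of 10 had an unadjusted p below 0.05 (28.1% of all genes did), and 0.63 in no nicotine males, where 8 of 10 did (36% of all genes). It was 0.12 in no nicotine females (0 of 10, 36.4% of all genes) and 0.06 in nicotine males (0 of 10).

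Markers of other cells moved with treatment too. Of 10 cortical projection neuron genes, 1 fell in females with nicotine and 9 in each no nicotine group, and 0 were called in males with nicotine, with medians of log2 -0.65, -0.91, -0.94 and -0.39 in the order female nicotine, female no nicotine, male no nicotine and male nicotine. Of all genes tested, 2.32%, 7.03%, 7.47% and 0% were called lower in the same order. Their summed level ran from 3308 to 4265 CPM in female air libraries, from 2201 to 3010 CPM with nicotine and from 1334 to 3109 CPM without nicotine, and from 3120 to 3717, 2193 to 3061 and 1147 to 2246 CPM in the same groups of males. Of 10 striatal projection neuron genes, 3 rose in nicotine females, 1 in no nicotine females, 0 in nicotine males and 3 in no nicotine males (medians 0.73, 0.46, 0.36 and 0.74), while 1.98%, 5.03%, 0% and 6.15% of all genes were called higher. Their summed level ran from 1133 to 2769 CPM in female air libraries, 2513 to 3441 CPM with nicotine and 2183 to 2757 CPM without nicotine, and from 1580 to 2775, 1761 to 3529 and 1880 to 5059 CPM in males. These shifts went along with the increases of Nkx6-2, Sox10, Olig1 and the mature genes, and the part of tissue makeup in those increases was not tested.

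For cells that share Pdgfra or Cspg4 with precursors, 0 of 9 pericyte genes and 0 of 8 fibroblast genes were called in any comparison with air (0 of 8 also for endothelium and microglia). The summed pericyte level was 402 to 571 CPM in females and 365 to 522 CPM in males, and the fibroblast level 272 to 542 and 235 to 866 CPM. The fibroblast median was log2 0.08 in nicotine females, 0.30 in no nicotine females (3 of 8 at an unadjusted p below 0.05), 0.35 in nicotine males (1 of 8, with all 8 differences above 0) and -0.13 in no nicotine males. Of 8 astrocyte genes, Gjb6 was called in males without nicotine (0.40, adjusted p = 0.00847). Choroid plexus genes were called for 3 of 8 in that group (Clic6, Otx2 and Ttr), or 37.5%, beside 6.15% of all genes called higher. There 1 library had a summed level of 964 CPM and the group median was 37.1 CPM. In nicotine females 0 of 8 were called, with 6 differences below 0, 2 above and a median of log2 -0.87. The summed level in female air reached 332 CPM (median 19.3 CPM). None of the genes in these marker lists was at 0 in all libraries of a group.

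**Figure D5:**
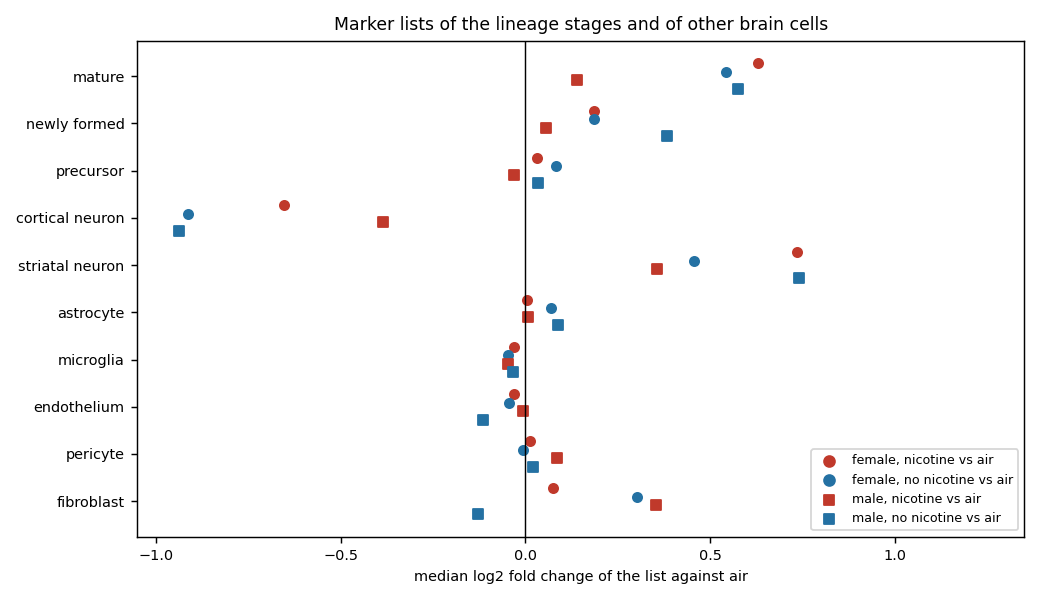
Median log2 fold change against air (x axis) of lists of marker genes (y axis), for 4 comparisons with symbols as for single genes. Cortical neuron medians lie between -0.94 and -0.39, striatal neuron medians between 0.36 and 0.74 and mature oligodendrocyte medians between 0.14 and 0.63, while pericyte, endothelium, microglia and astrocyte medians lie within 0.12 of 0 and fibroblast medians between -0.13 and 0.35.

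Genes whose levels followed a lineage gene across libraries after group means were removed were found among 15104 genes (mean Pearson r of the 2 tables, 16 female and 17 male libraries, each table from 1 sequencing run). For Pdgfra these were Fads2 (0.93), Ptprz1 (0.88), Apoe (0.88), Gja1 (0.86) and Gpc5 (0.82). For Nkx6-2 these were Snx30 (0.81), Acly (0.80), Galnt6 (0.80), Dock10 (0.79) and Abat (0.76). The 2 sets had no gene in common, as is likely for small sets from 15104 genes. In the Pdgfra set, Ptprz1 belongs to the precursor list and Gja1 to the astrocyte list.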

How the data were processed

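The data are RNA-Seq libraries from 33 offspring. The authors deposited raw read counts per gene in 1 table per sex, for which single reads were aligned to the mm9 transcriptome (Bowtie), PCR duplicates were dropped (SAMtools) and reads were counted by HTSeq. The normalized tables were not used. One column of the female table (1 of 34) matched no labelled sample and was not used. Genes were tested where CPM summed over the libraries of a sex reached 5 (15158 genes in females, 15293 in males). edgeR 4.0.16 was used for TMM scaling and quasi-likelihood tests, in 1 model per sex that held its 3 groups and no covariate. The p-values were adjusted by Benjamini-Hochberg over all genes, with a threshold of 0.01, and intervals are 95%. Levels are TMM-normalized CPM, and per kb they are divided by the merged exon length. The tests were tried on simulated counts of the no nicotine comparisons: edgeR recovered 96% and 71% of 100 genes changed by 1 and 0.5 on the log2 scale in females (15158 genes), and 98% and 74% in males (15293 genes). Alternatives were DESeq2 1.42.0, limma-voom (limma 3.58.1), other normalizations and filters, fits of 2 groups, omission of each library and the replicate number as a block. R 4.3.3, Python 3.11.15 and matplotlib 3.10.9 were used. The named genes are the 9 lineage genes, up to 3 called genes of smallest p from each other list in each comparison with air, and the 5 genes most like Pdgfra and Nkx6-2. Outside this rule, Tcf12, Fgfr1 in males, Ptch1 in females and Bmp4 in nicotine females and no nicotine males were named after their values were seen. The 9 genes and the lists were chosen with earlier results of these data known. The paper states that 1 pup per litter was used, and the labels do not give the litters, so it is not known whether any male and female pups were siblings. Total counts set the precision of each level, with at least 17845672 counts per library.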

Additional observations from a re-analysis of the deposited data

Results flagged for a closer look

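Dixon's test at the 95% level was applied to 60 group values (levels of the 9 genes and derived measures), and 3 stood apart, where chance gives about 1 in 20. The male nicotine library 15 was the highest of 6 for Pdgfra at 181.495 CPM and for Cspg4 at 88.9062 CPM, the 2 receptors of the precursor. Air library 37 was the highest of 6 male air libraries for the mature minus precursor difference, at 1.96646 on the log2 scale. No explanation was tested.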

How the results depend on the processing

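The log2 changes of the 9 genes in 8 contrasts were refitted 2016 times: 1877 kept direction and side of the threshold, 50 lost a call, 20 gained one and 69 turned sign. Those 69 belong to 16 changes of at most 0.07 in size, and 0 of them was called. DESeq2 called 5 lineage genes in females with nicotine, 1 in nicotine males and 3 between the male aerosols, where limma-voom called 1. Fits of the 2 groups compared called 1 lineage gene in males with nicotine. DESeq2 called 5 newly formed genes in females without nicotine, 2 precursor and 1 newly formed gene in males with nicotine, and 3 newly formed and 8 mature genes between the male aerosols, where fits of 2 groups called 0 newly formed genes. Between the male aerosols the main edgeR fit called 1 newly formed gene, lower with nicotine, and 0 mature genes. All 30 mature differences there were below 0 (median log2 -0.45), and 28 had an unadjusted p below 0.05 (20.1% of all genes did). The precursor call in females with nicotine dropped to 0 by limma-voom, with upper quartile normalization, with no filter, with the stricter filter and in fits of 2 groups. CPM by library total moved the 54 group levels by -2.50 to 2.36%, all within 1 SD. The correlations did not settle whether female replicate numbers pair samples. Of 14 same-number pairs, 4 correlated above 0.1 (range -0.27 to 0.27), and 7 of 16 samples correlated best with their own number. Pairing is therefore not excluded. With the replicate block, the counts in females with nicotine were 0 lineage, 0 precursor, 1 newly formed and 14 mature genes, and without nicotine 2 lineage and 0 precursor genes. Genes called fell from 651 to 136 and from 1829 to 736.

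Leaving out 1 library gave 0 to 4 lineage genes in females with nicotine, 3 to 6 without nicotine, 0 to 1 in the male nicotine group and 0 to 3 between the male aerosols. It gave 0 to 1 precursor and 1 to 5 newly formed genes in females with nicotine, 0 to 5 and 2 to 5 without nicotine, 1 to 3 and 4 to 8 in males without nicotine, and 0 to 2 newly formed and 0 to 5 mature genes between the male aerosols. Sign turns followed, as log2 values. Pdgfra in females with nicotine was 0.0175 with upper quartile normalization, 0.0035 with no filter, 0.0054 with the stricter filter and 0.0050 in fits of 2 groups, and -0.0483 to 0.0384 by omission. Sox10 between the female aerosols was 0.039 by limma-voom, 0.0046 with upper quartile normalization, 0.00099 in fits of 2 groups and 6.1e-05 with the replicate block, and -0.0532 to 0.0768 by omission. Zfp488 there was 0.017 by limma-voom and -0.124 to 0.0991 by omission. The sex difference of Olig1 without nicotine was -0.0016 by limma-voom and -0.0461 to 0.0538 by omission. By omission alone, Cspg4 ran from -0.0848 to 0.00482 in females with nicotine, from -0.00902 to 0.055 in males without nicotine and from -0.012 to 0.081 between the male aerosols, Olig2 from -0.00262 to 0.0418 in males with nicotine, and Pdgfra from -0.0231 to 0.0485 in males with nicotine, -0.0209 to 0.0379 without nicotine and -0.0387 to 0.0333 between the male aerosols. The sex differences ran from -0.0286 to 0.0687 for Pdgfra with nicotine and, without nicotine, from -0.0107 to 0.151 for Gpr17, -0.0765 to 0.0667 for Sox10, -0.138 to 0.0588 for Nkx6-2 and -0.148 to 0.0659 for Zfp488. The causes were not tested.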
